A study of Mus musculus with 12 samples.

Results

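The genes described here are 10 Sox transcription factor genes, *Sox2*, *Sox4*, *Sox5*, *Sox6*, *Sox8*, *Sox9*, *Sox11*, *Sox12*, *Sox13* and *Sox21*, picked by name from a table of 18903 genes. They were chosen with earlier results of these data known. All 10 had counts in every library and all 10 were among the 17938 genes tested. RNA was sequenced from mouse primary astrocyte cultures set up at postnatal day 1 (P1), P6 or P8, with 2 libraries in each of 6 groups and 12 in all. The libraries labelled cKO came from hGFAP-cre:: Rack7 fl/fl mice and those labelled WT from hGFAP-cre:: Rack7 +/+ mice, so both carried the Cre transgene. That transgene is driven by the human GFAP promoter and is active in the dorsal forebrain before birth, in precursors of neurons as well as of glia, and its target was exons 3 and 4 of *Rack7*, the gene now named *Zmynd8*, which encodes a chromatin reader. Meninges had been stripped from the brains, and the flasks had been shaken to remove microglia and oligodendrocytes.

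SOX proteins bind the minor groove of DNA through an HMG box and bend it, and they usually act together with a partner factor. They are sorted into groups by the sequence of that box. SOX2, of group SOXB1, keeps neural stem and progenitor cells undifferentiated, and SOX21, of group SOXB2, is known to counteract SOXB1 proteins. SOX4, SOX11 and SOX12 form group SOXC and act in early neuronal differentiation. SOX5, SOX6 and SOX13 form group SOXD, which lacks a transactivation domain of its own, and SOX5 and SOX6 hold back oligodendrocyte maturation. SOX8 and SOX9 belong to group SOXE, and SOX9 starts gliogenesis and is a nuclear marker of astrocytes.

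*Sox2*, *Sox6*, *Sox8* and *Sox21* were higher at both P6 and P8 in the cultures labelled cKO than in those labelled WT. No Sox gene was called different at P1. At P6, *Sox2*, *Sox6*, *Sox8*, *Sox13* and *Sox21* were higher in the libraries labelled cKO, by 1.64- to 2.63-fold. At P8, *Sox2*, *Sox6*, *Sox8*, *Sox11* and *Sox21* were higher, by 2.09- to 3.74-fold. *Sox4* and *Sox9*, 2 of the 3 most abundant members per length at P1, lay slightly lower in the libraries labelled cKO at P8, by less than 1.5-fold.

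Levels are given in CPM, the reads of a gene per 1000000 reads of its library after TMM scaling, which corrects for differences in composition between libraries. Library totals ran from 54413504 to 89183250 counts. A gene was called when edgeR's quasi-likelihood test gave a Benjamini-Hochberg adjusted p below 0.05 over all genes tested and the fold change was at least 1.5. The labels name the 2 libraries of a group as biological replicates but not the animals or flasks behind them, so a p-value measures the spread between these libraries. An exact permutation test of 2 libraries against 2 cannot give a two-sided p below 0.333, and none is reported for single genes.

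The targeted gene did not mark the libraries by a lower count. *Zmynd8* measured 136.3 and 136.0 CPM in the P1 libraries labelled WT against 212.9 and 215.5 CPM in those labelled cKO. It was also higher in the libraries labelled cKO at P6 (log2 fold change 1.04) and P8 (0.70; edgeR adjusted p 3.16e-05, 4.97e-07 and 3.78e-06 at P1, P6 and P8). A count over the whole gene does not show whether exons 3 and 4 were present, so every direction below refers to the libraries as they were labelled. The paper checked RACK7 protein in WT and cKO primary astrocytes by immunoblot. It also found far fewer chromatin sites bound by RACK7 in cKO than in WT astrocytes. The sources used here do not say whether those were the cultures sequenced.

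The 3 members whose difference was largest at P8, *Sox2*, *Sox8* and *Sox21*, sit at separate loci. In GENCODE vM21 on GRCm38, *Sox2* (ENSMUSG00000074637) is a single-exon gene at chr3:34650405-34652461 on the plus strand, inside an intron of the long non-coding RNA gene *Sox2ot*, with which it shares no exon base. *Sox21* (ENSMUSG00000061517) is also a single-exon gene, at chr14:118233232-118237030 on the minus strand, and 18.8% of its exonic bases lie opposite the lincRNA gene *Gm4675*. *Sox8* (ENSMUSG00000024176) lies at chr17:25565892-25570686 on the minus strand, where 10.6% of its exonic bases overlap the antisense gene *2810468N07Rik*. The sources used here do not say whether counting used strand, so reads of antisense partners may be included.

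The promoter windows of these 3 genes are shown because their differences at P8 were the largest. *Sox6*, also called higher at P6 and P8, is given below by its CpG counts and motif matches alone. Each is the 250 bases before the RefSeq start on GRCm38.p6, 5′ to 3′ on the gene's strand, with CpG dinucleotides, the site of DNA methylation in mammals, in capitals. The windows are chr3:34649745-34649994 (plus strand) for *Sox2*, chr17:25570687-25570936 (minus strand) for *Sox8* and chr14:118237031-118237280 (minus strand) for *Sox21*.
Sox2: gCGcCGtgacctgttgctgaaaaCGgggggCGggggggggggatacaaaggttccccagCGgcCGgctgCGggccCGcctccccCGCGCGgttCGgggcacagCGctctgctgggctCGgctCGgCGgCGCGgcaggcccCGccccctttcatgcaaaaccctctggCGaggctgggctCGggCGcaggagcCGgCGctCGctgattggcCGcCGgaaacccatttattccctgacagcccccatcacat
Sox8: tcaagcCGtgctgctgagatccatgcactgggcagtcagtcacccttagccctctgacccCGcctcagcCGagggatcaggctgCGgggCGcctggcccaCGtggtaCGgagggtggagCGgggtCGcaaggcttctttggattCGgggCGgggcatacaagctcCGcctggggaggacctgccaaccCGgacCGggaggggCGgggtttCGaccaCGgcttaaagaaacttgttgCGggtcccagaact
Sox21: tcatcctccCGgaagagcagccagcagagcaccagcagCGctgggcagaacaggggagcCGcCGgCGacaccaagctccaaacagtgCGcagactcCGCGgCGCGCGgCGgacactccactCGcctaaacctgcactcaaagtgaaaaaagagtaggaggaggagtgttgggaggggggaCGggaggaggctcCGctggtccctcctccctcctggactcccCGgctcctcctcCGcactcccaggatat
They hold 27, 18 and 17 CpG, against a median of 6 over all 32851 RefSeq windows of that length. RefSeq windows were matched for 9 of the 10 members, with *Sox9* left unmatched. Windows of *Sox12* and *Sox13* held 35 and 31 CpG, *Sox11* 17, *Sox4* 11 and *Sox5* 3, and the 6 alternative starts of *Sox6* held between 1 and 10. The CpG counts of members that were called higher in the libraries labelled cKO and of those that were not overlapped. The pentamer ACAAT, a core of the SOX recognition sequence searched on both strands, was in 27.7% of all windows. It was in none of the *Sox2*, *Sox8* and *Sox21* windows, while *Sox5* and some *Sox6* windows held it. The longer AACAAAG was in 5.03% of all windows and, among members, in 3 *Sox6* windows alone. Other variants of the SOX sequence were not searched, so a window without these 2 matches may still hold a SOX-type site.

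*Sox2* was the most abundant member per length in 4 of the 6 groups. Length here is the union of exons over all annotated transcripts, 14376 bases for *Sox5* and 14832 for *Sox6*. The per-kb ranks of both genes depend on that choice. In CPM, *Sox6* averaged 70.0 in the P1 libraries labelled WT, above *Sox8* at 19.8. On the scale of CPM per kb of exon, *Sox2* stood at 79.4 ± 3.57 (SD, n = 2) in the P1 libraries labelled WT, ahead of *Sox4* at 36.8 ± 0.44 and *Sox9* at 29.0 ± 1.86. The other 7 members lay between 0.48 (*Sox5*) and 6.36 (*Sox8*), and *Sox11* (1.48 ± 0.27) and *Sox13* (1.47 ± 0.04) did not differ beyond their spread. With the label cKO the first 7 members at P1 came in the same order, from *Sox2* at 71.4 ± 1.68 to *Sox12* at 4.15 ± 0.16.

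That order changed with age in the libraries labelled WT. At P6 *Sox4* (40.4 ± 2.995 CPM per kb) stood above *Sox2* (32.3 ± 1.44), and at P8 *Sox4* (38.1 ± 0.26) and *Sox9* (16.2 ± 1.34) both did, with *Sox2* at 12.7 ± 1.40. With the label cKO *Sox2* stayed first at P6 (58.7 ± 2.65) and at P8, where it stood at 32.5 ± 1.64 against 29.3 ± 0.52 for *Sox4*. On this per-kb scale *Sox5* was last in all 6 groups. At P8 with the label WT, *Sox8* (1.10 ± 0.06), *Sox6* (1.06 ± 0.28) and *Sox11* (1.03 ± 0.05) lay within their spread of each other.

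**Figure D1:**
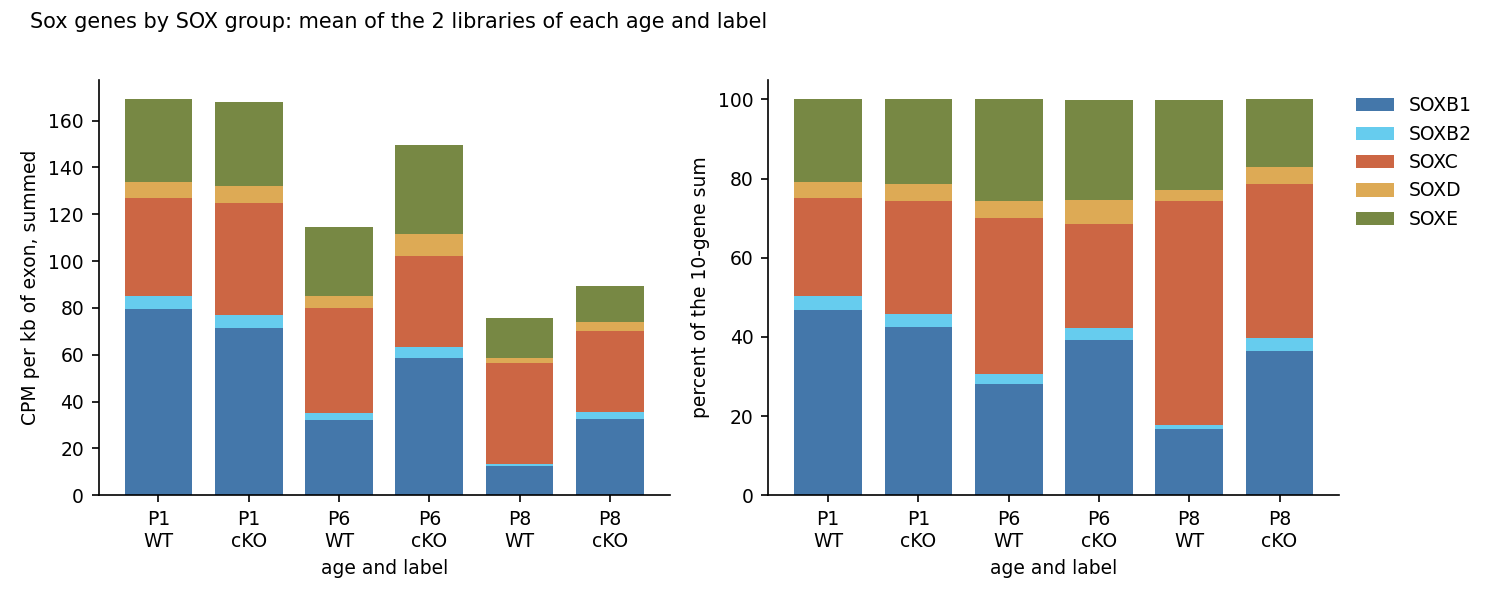
Level of the 10 Sox genes by SOX group in each age and label, as summed CPM per kb of exon (left) and as a percent of the sum over all 10 (right); each bar is the mean of 2 libraries. The sum is 169.1 and 168.0 at P1 and smaller at the later ages under both labels, and the SOXB1 part (*Sox2*) makes up 16.7% of the P8 bar labelled WT and 36.4% of the P8 bar labelled cKO.

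With the label WT the level per kb summed over the 10 genes started at 169.1 ± 1.42 in P1 cultures, with 114.6 ± 2.54 in P6 and 75.9 ± 2.97 in P8 cultures (SD, n = 2 each). With the label cKO the sum was 168.0 ± 1.61, then 149.4 ± 3.16 and then 89.2 ± 2.26. The share of *Sox2* in that sum went from 46.9% ± 1.7 through 28.2% ± 1.9 to 16.7% ± 1.2 with the label WT. With the label cKO it went from 42.5% ± 0.59 through 39.2% ± 0.95 to 36.4% ± 0.91. The SOXC share was the counterpart, reaching 56.7% ± 1.9 at P8 with the label WT against 39.0% ± 0.69 with the label cKO. The SOXC level itself did not rise beyond its spread with the label WT. It was 42.13 ± 0.99, 45.07 ± 3.53 and 43.01 ± 0.25 CPM per kb at P1, P6 and P8. With the label cKO it was 47.95 ± 0.11, 39.04 ± 0.20 and 34.77 ± 0.27. In bulk RNA from a mixed culture, fewer cells that express a gene and less RNA of it per cell cannot be told apart.

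**Figure D2:**
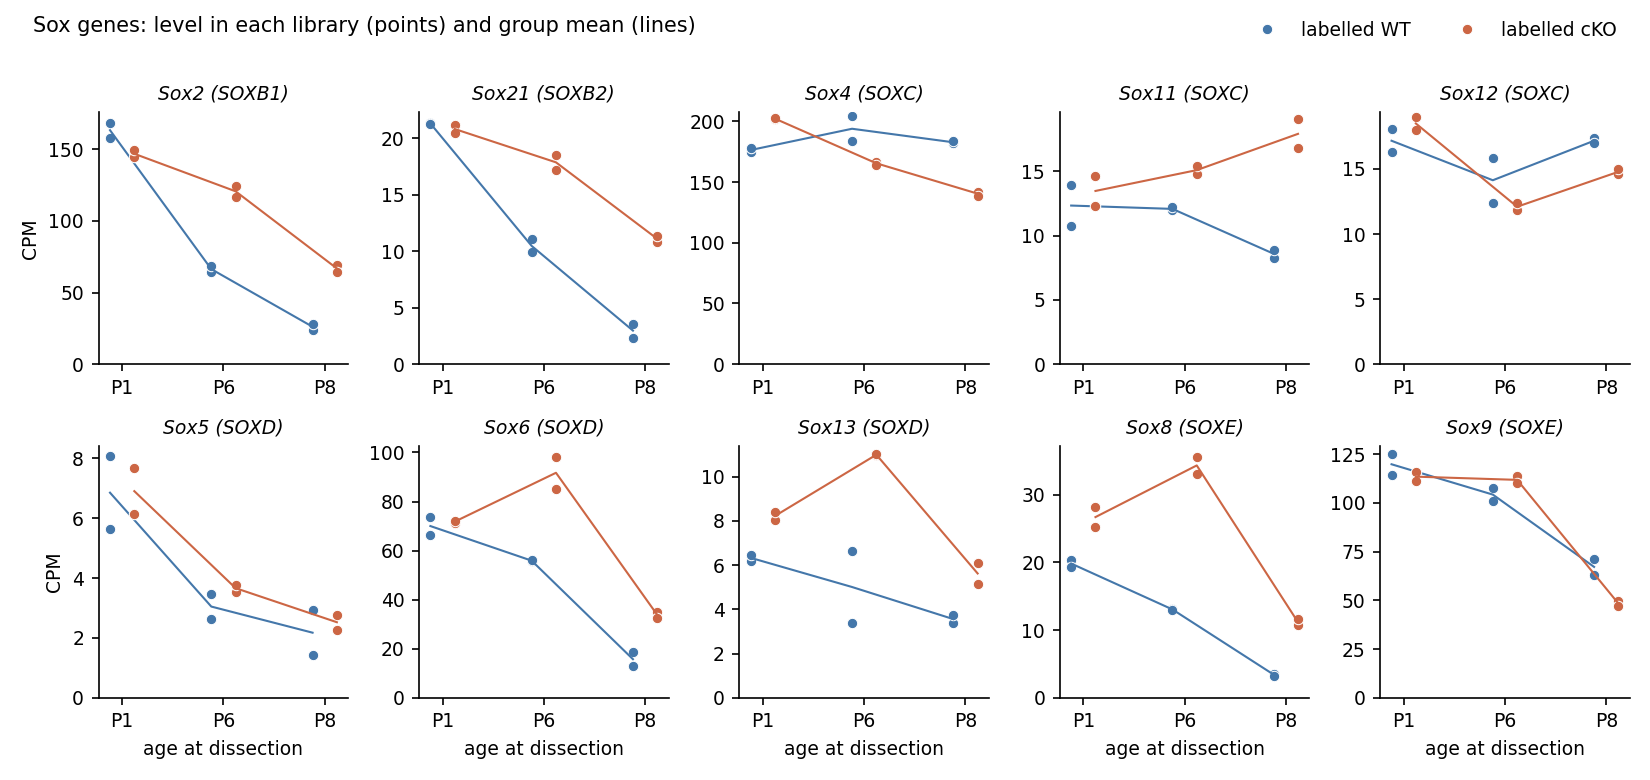
CPM of each Sox gene (vertical axes, from 0) in each of the 12 libraries by age at dissection; points are libraries, lines join group means, blue is labelled WT and orange labelled cKO. The blue and orange points lie apart for every gene at P6 and for every gene but *Sox5* at P8. At P1 they lie apart for *Sox2*, *Sox4*, *Sox8*, *Sox13* and *Sox21*, none of which was called. The share of all tested genes whose points lie apart was not counted. Such a separation of 2 libraries from 2 has an exact two-sided permutation p of 0.333. At P8 *Sox2* measures 24.1 and 28.2 CPM with the label WT against 69.2 and 64.4 CPM with the label cKO.

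The first comparison asked how the Sox genes differed between the labels at each age. At P1, 0 of the 10 were called, where 4.01% of all tested genes were called higher and 0.892% lower in the libraries labelled cKO. At an unadjusted p below 0.05 with no fold limit, 2 members passed, and DESeq2 called 0. These were *Sox8*, at 20.4 and 19.3 CPM with the label WT and 25.2 and 28.2 CPM with the label cKO (log2 fold change 0.43 ± 0.09 SE, edgeR adjusted p 0.0198), and *Sox4* (0.20 ± 0.05, adjusted p 0.0405). Both were under 1.5-fold. The median log2 difference over the 10 genes was 0.072 at P1, against 0 over all genes.

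The members were chosen with earlier results of these data known, and the paper names *Sox6* and *Sox8* among the genes increased in them. Shares over all genes are therefore given for scale and are no test of the members. At P6, 5 of the 10 were called higher, against 7.16% of all tested genes. None was called lower, against 6.38%, by edgeR or by DESeq2. *Sox4* was lower at an edgeR adjusted p below 0.05, by less than 1.5-fold. At P8, 5 of the 10 were called higher, against 11.2%, and again none lower, against 8.37%, by either tool. *Sox4* and *Sox9* were lower there at an edgeR adjusted p below 0.05, by less than 1.5-fold each. The median log2 difference over the members was 0.52 at P6 and 0.86 at P8, against 0 and 0.012 over all genes. *Sox2*, *Sox6*, *Sox8* and *Sox21* were called at both ages. The 2 ages share no library, but both tests came from the same fit and its common estimate of the spread.

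**Figure D3:**
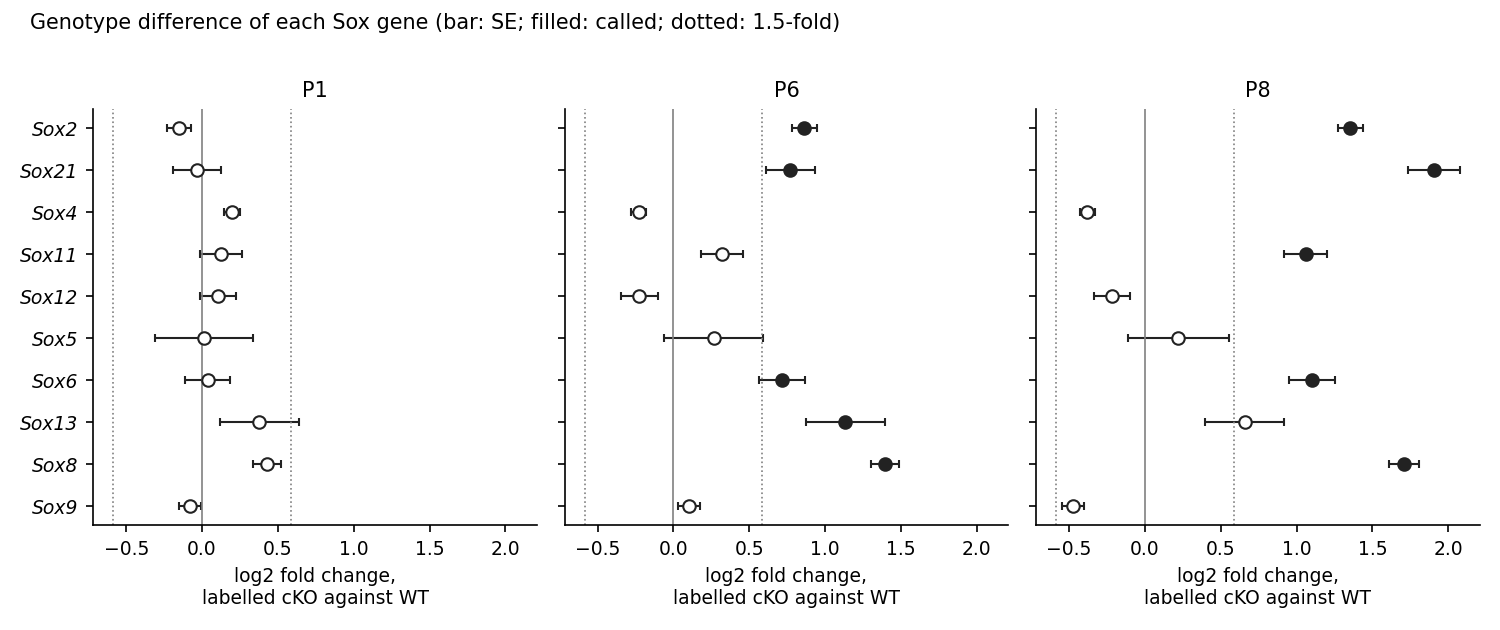
Log2 fold change of each Sox gene between the libraries labelled cKO and WT at P1, P6 and P8 (horizontal axes; bars are SE from the edgeR fit, filled points are called, dotted lines mark 1.5-fold). No point is filled at P1 and 5 are filled at each of P6 and P8, all to the right of the dotted line.

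*Sox2* measured 64.3 and 68.5 CPM in the P6 libraries labelled WT and 124.5 and 116.8 CPM in those labelled cKO. At P8 it measured 24.1 and 28.2 CPM against 69.2 and 64.4 CPM. The higher group lay well clear of the other at both ages. The log2 fold change was 0.86 ± 0.08 (SE) at P6 and 1.35 ± 0.08 at P8, or 1.82- and 2.56-fold, with edgeR adjusted p of 5.9e-05 and 2.12e-06. At P1 the labels gave 168.5 and 158.1 CPM against 144.4 and 149.3 CPM, a difference that was not called (-0.15 ± 0.08, adjusted p 0.32).

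*Sox21* differed at the same ages as *Sox2*. At P1 its 4 libraries lay between 20.5 and 21.4 CPM whatever the label (log2 fold change -0.03 ± 0.16). At P6 it measured 9.91 and 11.1 CPM with the label WT and 17.2 and 18.6 CPM with the label cKO (0.77 ± 0.16, 1.71-fold, adjusted p 0.00706 by edgeR). Without P6 replicate 1 labelled WT this call was lost (adjusted p 0.0513). At P8 it measured 3.60 and 2.36 CPM against 10.8 and 11.4 CPM, the largest fold of any member (1.90 ± 0.17, 3.74-fold, adjusted p 2.59e-05).

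The SOXE genes differed from each other. *Sox8*, which acts in oligodendrocyte development, measured 13.1 and 13.0 CPM at P6 with the label WT and 35.6 and 33.1 CPM with the label cKO. At P8 it measured 3.55 and 3.30 CPM against 10.7 and 11.6 CPM. The groups were far apart at both ages, by 1.40 ± 0.09 (2.63-fold, edgeR adjusted p 6.75e-06) and 1.71 ± 0.10 (3.26-fold, 1.47e-06) on the log2 scale. *Sox9* measured 107.6 and 100.8 CPM against 113.6 and 109.9 CPM at P6, where it was not called (0.10 ± 0.07, adjusted p 0.367). At P8 it measured 63.2 and 71.0 CPM with the label WT and 49.5 and 47.2 CPM with the label cKO. The groups did not overlap and the adjusted p was 8.3e-04, but the size, -0.47 ± 0.07 or 1.39-fold, was under the fold limit.

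Among the SOXD genes, *Sox6* measured 55.6 and 56.2 CPM at P6 with the label WT and 85.1 and 98.3 CPM with the label cKO (log2 fold change 0.71 ± 0.15, edgeR adjusted p 0.00731). At P8 it measured 12.8 and 18.7 CPM against 35.0 and 32.6 CPM (1.10 ± 0.15, adjusted p 4.57e-04). *Sox6* was thus higher with the label cKO at both ages. *Sox13*, known from lymphocytes and the embryo, was lower in abundance and more variable. Its P6 libraries labelled WT held 3.36 and 6.66 CPM against 10.98 CPM or more with the label cKO (1.13 ± 0.26, adjusted p 0.0112), and the call was lost in a fit on the P6 libraries alone (0.0647). At P8 it was not called (0.66 ± 0.26, adjusted p 0.085), although the adjusted p was 0.00472 and 0.00509 without P6 replicate 1 or 2 labelled WT. *Sox5*, at 1.43 to 3.78 CPM at these ages, was not called at any age, with SE of 0.32 to 0.33 on the log2 scale.

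The SOXC genes did not move together. *Sox11* measured 8.29 and 8.88 CPM at P8 with the label WT and 16.8 and 19.0 CPM with the label cKO, and was called higher there (1.06 ± 0.14, 2.09-fold, edgeR adjusted p 3.47e-04). At P6 its difference was 0.32 ± 0.14 and was not called (adjusted p 0.134). *Sox4* measured 204.1 and 183.7 CPM against 166.6 and 164.3 CPM at P6, and 181.9 and 183.6 CPM against 142.2 and 138.7 CPM at P8. Its libraries labelled cKO were the lower ones at both ages, by -0.23 ± 0.05 (adjusted p 0.00891) and -0.38 ± 0.05 (3.26e-04), under 1.5-fold each time. Of the exonic bases of *Sox4*, 54.6% lie opposite the lincRNA gene *Gm26735*. *Sox12* differed by -0.22 ± 0.12 at both ages and was not called (adjusted p 0.218 and 0.202).

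The second comparison asked whether the difference between the labels itself changed with age, by the interaction term of the same edgeR fit at an adjusted p below 0.05. From P1 to P6, 3 members had a difference that moved upward and 1 downward, against 7.12% and 8.19% of all tested genes. From P6 to P8 the counts were 3 and 1, against 12.6% and 8.83%, and from P1 to P8 they were 5 and 2, against 14% and 11.7%. These 3 terms share libraries and are not independent of each other.

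The shift from P1 to P8 was 1.94 ± 0.23 for *Sox21*, 1.51 ± 0.12 for *Sox2*, 1.28 ± 0.13 for *Sox8*, 1.07 ± 0.21 for *Sox6* and 0.93 ± 0.20 for *Sox11* on the log2 scale. It was -0.58 ± 0.07 for *Sox4* and -0.39 ± 0.10 for *Sox9*. The edgeR adjusted p ran from 1.34e-05 (*Sox2*) to 0.0199 (*Sox9*). Between P6 and P8 the difference widened for *Sox21* (1.13 ± 0.23), *Sox11* (0.74 ± 0.20) and *Sox2* (0.49 ± 0.11), and for *Sox8* the term was not called (0.31 ± 0.13, adjusted p 0.138).

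The third comparison followed each label across ages. With the label WT, *Sox2*, *Sox5*, *Sox8* and *Sox21* fell from P1 to P6, 4 of 10 against 10.9% of all tested genes. From P6 to P8, *Sox2*, *Sox6*, *Sox8*, *Sox9* and *Sox21* fell, 5 of 10 against 10.3%. None was called higher in either step, against 12.2% and 8.66% of genes, by edgeR or DESeq2, with 1 member higher at an unadjusted p below 0.05 in each. The P6 libraries enter both steps. Without P1 replicate 1 of that label the first count was 2, since *Sox5* (adjusted p 0.12) and *Sox8* (log2 change -0.56) lost their calls. Without P6 replicate 2 of that label *Sox5* also lost its call (adjusted p 0.115) while *Sox13* gained one (0.00355), and *Sox9* dropped under 1.5-fold in the second step without P8 replicate 1 (-0.55). The median member log2 change was -0.33 and then -0.56, against 0 over all genes.

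With the label cKO most of the called decreases were in the second step. From P1 to P6 only *Sox12* was called lower (-0.61 ± 0.12, edgeR adjusted p 0.00316), 1 of 10 against 10.4%, and it dropped under 1.5-fold without P1 replicate 2 or P6 replicate 1 of that label. *Sox5* changed by -0.91 ± 0.33 in the same step and was not called (adjusted p 0.0532). DESeq2 and a fit on those 2 ages alone each called 2 members. From P6 to P8, *Sox2*, *Sox6*, *Sox8*, *Sox9*, *Sox13* and *Sox21* fell, 6 of 10 against 12.2%. No member was called higher in either step, against 11% and 11.9% of genes, by edgeR or DESeq2. At an unadjusted p below 0.05, 2 and then 1 were higher. At an edgeR adjusted p below 0.05, *Sox8* was higher in the first step (0.36 ± 0.09), by less than 1.5-fold.

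Set against the P1 mean of the same label, *Sox2* at P8 stood at 16.0% with the label WT and 45.5% with the label cKO. *Sox21* stood at 14.0% and 53.3%, *Sox8* at 17.3% and 41.9%, and *Sox6* at 22.5% and 47.1%. *Sox8* and *Sox6* stood at 129% and 128% at P6 with the label cKO, in neither case a called rise. The step from P6 to P8 with the label cKO was -0.85 ± 0.08 for *Sox2*, -1.62 ± 0.09 for *Sox8*, -1.44 ± 0.15 for *Sox6* and -0.69 ± 0.16 for *Sox21*. *Sox9* ended at 56.1% and 42.6% and *Sox11* at 69.6% and 133%. *Sox4* ended at 104% with the label WT and 69.5% with the label cKO.

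Levels of several members followed each other across the 12 libraries. On the log2 CPM scale, Pearson's r was 0.967 for *Sox2* and *Sox21*, 0.962 for *Sox6* and *Sox8*, 0.944 for *Sox8* and *Sox21* and 0.929 for *Sox2* and *Sox8*. It was 0.089 for *Sox2* and *Sox4* and -0.027 for *Sox2* and *Sox12*. The points are libraries of 6 groups, so these values describe age and label together and carry no p. Among 12169 genes with enough counts, the closest to *Sox21* was *Pax6* (r = 0.994), a homeobox gene of cortical progenitors, followed by *Hk2* (0.987). The closest to *Sox8* were *Sall3* (0.994) and *Spred3* (0.992), to *Sox2* *Dtx4* and *Hdgf* (0.989 each), and to *Sox6* *Timm17a* (0.991) and *Nwd1* (0.990). For *Sox9* they were *Igsf11* and *Mpp6* (0.980 and 0.979), and for *Sox4* *Chst11* and *Tnfrsf19* (0.956 and 0.954).

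Of 9 further Sox names, 5 were in the table and their directions differed. *Sox1*, the SOXB1 relative of *Sox2*, measured 40.9 and 39.6 CPM at P1 with the label WT and 5.26 and 3.99 CPM at P8, and its difference at P8 was 0.53 ± 0.14 (adjusted p 0.0152, under 1.5-fold). *Sox7*, an endothelial factor of group SOXF, measured 0.92 and 0.71 CPM at P8 with the label WT and 8.03 and 8.31 CPM with the label cKO (3.33 ± 0.35, edgeR adjusted p 7.33e-05). The 4 tested endothelial markers summed to 148.2 to 161.4 CPM there with the label WT and 37.0 to 39.9 CPM with the label cKO, with 2 lower and 1, *Flt1*, higher. *Sox10*, the oligodendrocyte lineage SOXE factor, was lower there with the label cKO (-1.25 ± 0.41, adjusted p 0.0438), opposite to *Sox8*. *Sox3* and *Sox18* stayed below 1.3 CPM in every library, and *Sox2ot* spread from 0.68 to 25.7 CPM with overlapping groups and was not called.

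Genes that work downstream of or beside SOX proteins were read from lists. Of all tested genes, 4.01% were called higher and 0.892% lower with the label cKO at P1. The shares were 7.16% and 6.38% at P6, and 11.2% and 8.37% at P8. They give the scale for the list and marker counts below, which are no test of any list. Of 12 tested neural progenitor genes linked to SOX2, 0 were called at P1 by edgeR or DESeq2 (7 had an unadjusted p below 0.05). Of these 12, 6 were higher with the label cKO at P6 (*Lhx2*, *Nes*, *Vim*, *Pax6*, *Pou3f3* and *Msi1*), and at P8 6 were higher and 1, *Prom1*, lower. *Nes*, which encodes the intermediate filament nestin, averaged 864.4 and 2029 CPM at P6 with the labels WT and cKO (1.23 ± 0.04) and 146.9 and 499.0 CPM at P8 (1.76 ± 0.04). *Vim*, another intermediate filament gene, differed by 0.66 ± 0.05 and 0.95 ± 0.05, while *Notch1*, a receptor that maintains progenitors, was not called at either age. The list's median log2 difference was 0.045, 0.52 and 0.60 at P1, P6 and P8.

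The list of gliogenic partners of SOX9 and astroglial genes (14 tested) had 1 higher and 1 lower gene at P1. The split was 4 higher to 1 lower in P6 cultures and 1 higher to 4 lower in P8 cultures. *Zbtb20*, a transcription factor of astrogenesis, was higher at P6 (1.12 ± 0.26). *Aqp4*, the astrocyte water channel, and *Gfap*, the astrocyte intermediate filament, were lower with the label cKO at P8 (-2.01 ± 0.07 and -1.07 ± 0.06). The levels of *Sox9* at that age, given above, differed in the same direction by less than 1.5-fold.

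Of 11 cartilage matrix genes that SOX9 drives together with SOX5 and SOX6, 2 were higher at P1, 4 higher and 3 lower at P6, and 2 higher and 5 lower at P8. *Col2a1*, the type II collagen gene, averaged 146.0 and 565.1 CPM at P6 (1.95 ± 0.08) and 44.3 and 51.0 CPM at P8, where it was not called. *Col11a1* was lower at P8 (-1.81 ± 0.07), and *Col9a3* was higher at all 3 ages (1.98 ± 0.13, 2.10 ± 0.13 and 1.54 ± 0.13).

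Of 5 tested early neuronal genes linked to SOX4 and SOX11, 0 were called at P1 by either tool (1 had an unadjusted p below 0.05), 2 higher and 1 lower at P6 and 1 higher at P8. *Stmn2*, a microtubule regulator of growing neurites, was called higher at both later ages (1.11 ± 0.06 and 1.61 ± 0.06), *Map2* at P6 (1.00 ± 0.31), and *Stmn1* at neither. Of 10 oligodendrocyte lineage genes linked to SOX8 and SOX10, 2 were higher at P1, 2 lower at P6, and 2 higher and 3 lower at P8. *Cspg4*, a proteoglycan of oligodendrocyte precursors and pericytes, was lower at P8 (-1.34 ± 0.10), *Olig1* was lower at P6 (-0.66 ± 0.09), and *Cnp* was not called. Of 8 TCF and LEF genes and Wnt targets, the HMG-box relatives of SOX proteins and the genes they act on, 1 was higher at P1, 1 higher and 2 lower at P6, and 1 higher and 2 lower at P8. *Tcf7* was higher at P6 and P8 (1.25 ± 0.11 and 0.73 ± 0.11), *Axin2* at P1 (0.61 ± 0.12), and *Tcf7l2* at no age.

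**Figure D4:**
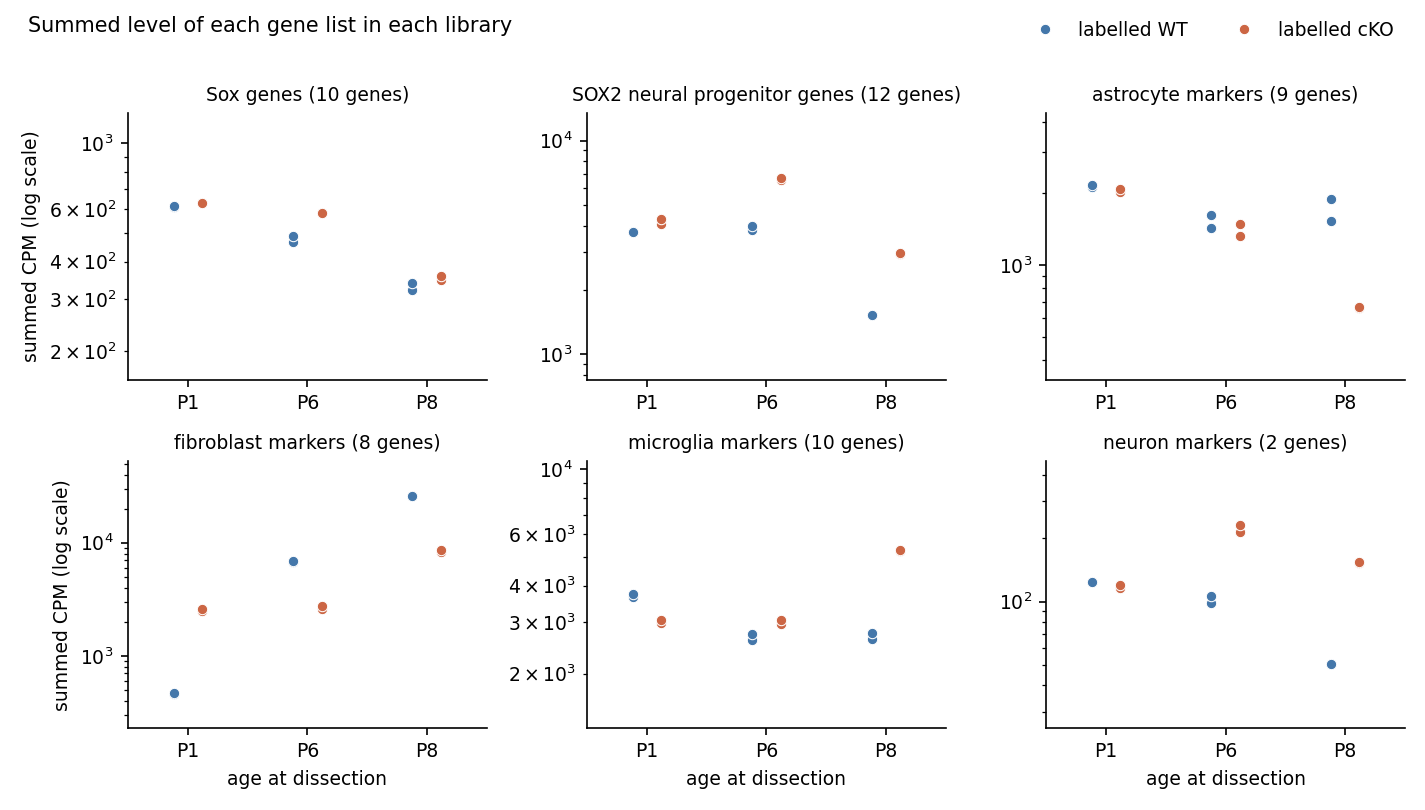
Summed CPM (log scale) of the Sox genes, of the SOX2-linked progenitor genes and of 4 marker lists in each library by age at dissection, blue labelled WT and orange labelled cKO. Fibroblast markers sum to 462 to 471 CPM at P1 and 25930 to 26140 CPM at P8 in the libraries labelled WT, while astrocyte markers at P8 are lower, and microglia markers higher, with the label cKO.

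Markers of other cell types moved with age and label, and their part in the Sox differences was not tested. The 8 fibroblast markers summed to 462 to 471 CPM at P1 with the label WT and 2473 to 2577 CPM with the label cKO, with 6 of 8 higher. At P6 they summed to 6799 to 6841 and 2590 to 2771 CPM, with 6 of 8 lower with the label cKO, and at P8 to 25930 to 26140 and 8269 to 8597 CPM, with 7 of 8 lower. Thus the libraries with the lower *Sox2*, *Sox6*, *Sox8* and *Sox21* at P6 and P8 were those with more fibroblast marker RNA, while at P1 the libraries labelled cKO held more of it and no Sox gene was called.

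The 9 tested astrocyte markers were present in every library and summed to 1439 to 1631 CPM at P6 with the label WT and 1331 to 1482 CPM with the label cKO, with 1 of 9 called lower. At P8 they summed to 1531 to 1895 and 661 to 668 CPM, with 5 of 9 lower, so *Sox2* and *Sox8* were higher in the libraries with less astrocyte marker RNA at that age. The 10 microglia markers summed to 2634 to 2759 and 5262 to 5312 CPM at P8, with 7 of 10 higher and 1 lower. Only 2 of 10 neuron markers were tested (*Stmn2* and *Syt1*), and both were higher at P6 and P8. *Syt1* was also called higher at P1 (log2 fold change 2.29 ± 0.22 SE), and DESeq2 called 1 of the 2 at P8. Oligodendrocyte lineage markers were lower in 2 of 8 at P6 and in 3 of 8 at P8, with 1 higher at P8. Of 8 proliferation genes, 0 were called at P1 by either tool (3 had an unadjusted p below 0.05), 2 were lower at P6, and 1 was higher and 1 lower at P8.

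The summed level of the 6 tested ependymal and choroid plexus markers was higher with the label cKO at P6 and P8. These markers summed to 227.6 to 242.4 CPM at P1 with the label WT and 236.0 to 250.8 CPM with the label cKO, with 1 of 6, *Folr1*, called higher. In P6 cultures the sums were 82.2 to 99.6 CPM against 143.5 to 144.6 CPM, with 2 of 6 (*Folr1* and *Foxj1*) higher and 1, *Ttr*, lower. In P8 cultures they were 32.6 to 32.8 CPM against 54.6 to 56.7 CPM, with 3 of 6 (*Folr1*, *Otx2* and *Foxj1*) higher. *Foxj1*, a factor for motile cilia, made up most of each sum and was higher by a log2 fold change of 0.68 ± 0.085 (SE) at P6 and 0.72 ± 0.086 (SE) at P8. *Tmem212* had no count in either library labelled WT at P1 or at P6. The part of these cells in the Sox differences was not tested. The 6 tested mural cell markers summed to 3434 to 3529 CPM against 4037 to 4592 CPM at P6 and to 2578 to 2614 CPM against 3142 to 3178 CPM at P8, while 4 of 6 were called lower at P6 and 1 of 6 at P8. *Acta2* and *Tagln*, which are contractile genes, made up most of those sums and were higher at both ages by less than the 1.5-fold limit of a call.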

How the data were processed

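RNA-seq of mouse primary astrocyte cultures was analysed from the deposited table of raw read counts per gene (18903 genes, 12 libraries). The authors had sequenced captured mRNA and aligned reads with HISAT2 to GRCm38 (mm10 per the labels); the sources used here do not give the counting program, the annotation or the strand setting. Groups came from the sample titles, and 0 columns belonged to other samples. The 10 members and all gene lists were chosen with earlier results of these data known. Genes were filtered with filterByExpr by group (17938 kept), scaled by TMM and fitted over all 12 libraries with 1 mean per group by edgeR 4.0.16 in R 4.3.3 (glmQLFit, glmQLFTest); Benjamini-Hochberg adjustment ran over all genes tested. Correlations used log2 CPM with a prior count of 2. Per-kb levels used exon unions of GENCODE vM21, and promoter windows came from RefSeq (GRCm38.p6).

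Genes named were all members and other measured Sox genes, the targeted gene, the 3 most abundant genes of each list and the 2 genes most like each member; other list genes are named where a count is given, and the *Sox2ot* locus, the overlapping genes and the 3 promoters after values were seen. Alternatives were DESeq2 1.42.0 and its size factors, no filter, an unadjusted p, a fold of 2, a GC correction, the compared ages alone, a replicate block and each library left out. Libraries with the same replicate number did not deviate together (correlations of -0.0627 to 0.0442 between groups over 17938 genes), so the number was not taken as a pairing. Depth was 54413504 to 89183250 counts per library.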

Additional observations from a re-analysis of the deposited data

Results flagged for a closer look

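The difference between the labels changed with age for 7 of the 10 Sox genes, by the interaction term of the edgeR quasi-likelihood fit with Benjamini-Hochberg adjustment over all genes. From P1 to P8, 5 members moved upward and 2 downward, against 14% and 11.7% of all tested genes. Between P1 and P6 the log2 difference (label cKO minus label WT) shifted by 1.02 for *Sox2* (adjusted p 3.35e-04), 0.97 for *Sox8* (0.00103), 0.80 for *Sox21* (0.0434) and -0.43 for *Sox4* (0.00344). Between P6 and P8 it shifted by 1.13 for *Sox21* (0.00759), 0.74 for *Sox11* (0.0271), 0.49 for *Sox2* (0.0143) and -0.57 for *Sox9* (0.00368). Between P1 and P8 it shifted by 1.94 for *Sox21* (2.55e-04), 1.51 for *Sox2* (1.34e-05), 1.28 for *Sox8* (1.05e-04), 1.07 for *Sox6* (0.00551), 0.93 for *Sox11* (0.00745), -0.39 for *Sox9* (0.0199) and -0.58 for *Sox4* (2.99e-04). *Sox9* alone among the members had a difference that was near 0 at P1 and P6 and lower with the label cKO at P8. The *Sox21* shift from P1 to P6, the *Sox2* and *Sox11* shifts from P6 to P8 and the *Sox9* shift from P1 to P8 each lost their call when single libraries were left out.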

How the results depend on the processing

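Of 1970 values of the 10 Sox genes under the alternatives, 1903 kept their side of the thresholds, 44 lost a call and 23 gained one. A called direction was reversed in 0. Among values of members and other Sox genes that were not called, 44 changed sign, and those of members lie within the 1903. With a fold limit of 2, 2 members were called between the labels at P6 in place of 5, 3 from P6 to P8 with the label cKO in place of 6, and 0 from P1 to P6 with the label cKO in place of 1. That last count was 2 with an unadjusted p, with DESeq2, with a replicate block and with the compared ages alone, where *Sox5* was added, and 0 to 2 with each library left out (0 without P1 cKO replicate 2 or P6 cKO replicate 1, 2 without P8 WT replicate 1 or 2). With the label WT, the count from P1 to P6 was 2 to 4 with each library left out, and 2 without P1 WT replicate 1, since *Sox5* (adjusted p 0.12) and *Sox8* (log2 -0.56) lost their calls. *Sox5* also lost it without P6 WT replicate 2 (0.115), where *Sox13* gained one. The replicate block changed 1 more call, the *Sox21* shift from P1 to P6 (adjusted p 0.064), and left 98 of 100 values as they were. Left-out libraries also ended these edgeR calls: *Sox2* from P6 to P8 in the difference between labels (0.0565 without P8 cKO replicate 1), *Sox9* from P6 to P8 with the label WT (log2 -0.55 without P8 WT replicate 1), and with the label cKO *Sox21* (0.0522 without P8 cKO replicate 1) and *Sox13* (0.0529 to 0.098) from P6 to P8. The *Sox21* shift from P1 to P6 was lost without any of 10 libraries (0.0669 to 0.125), the *Sox11* shift from P6 to P8 without any of 7 (0.0571 to 0.0972), and the *Sox9* shift from P1 to P8 without any of 4 (0.0657 to 0.0735). The cause was not tested. Standard errors between the labels were widest for *Sox5* and *Sox13*.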
